A study of Mus musculus with 9 samples.

Results

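Expression of 10 interferon-inducible genes was measured in a mouse embryonic stem cell (ESC) line and in cells re-derived from it after transplantation. The set comprised the genes of the ISG15 conjugation system (Isg15, Usp18, Uba7, Ube2l6 and Herc6), the IFIT genes Ifit1, Ifit2 and Ifit3, and the antiviral genes Rsad2 and Rtp4. Members were found by gene symbol or older symbol, and all 10 were present among 22319 named genes and 28853 probe sets, with 1 probe set each. Uba7 stood in the files under its older name Ube1l, and Herc6 under Herc5. Groups of 3 arrays each were D10, re-derived from the bone marrow at day 10 after transplantation, D5, re-derived from it at day 5, and the ESCs. D10 and D5 are called the lines here. The ESCs came from blastocysts of 3.5 days and, like all groups, were of C57BL/6 × OG2 background, in which an Oct4/EGFP transgene drives green fluorescence in pluripotent cells. GFP+ marrow cells were sorted, and every group was grown on feeder cells in ESC medium. The labels call the arrays biological replicates and write of each group both as a cell line and as cell lines, so how many derivations stand behind a group is not settled. A p-value here covers the variation among these samples, which may be of a single derivation.

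ISG15 is a small ubiquitin-like protein that is attached to other proteins in cells exposed to interferon. UBA7 activates it, UBE2L6 carries it, HERC6 is its main ligase in the mouse, and USP18 removes it from its targets. Type I interferon acts through the receptor subunits IFNAR1 and IFNAR2 and the kinases JAK1 and TYK2, and transcription factors that include STAT2 and IRF9 then bind interferon-stimulated response elements in the promoters of such genes. IFIT proteins bind viral RNA and hold back its translation, and pluripotent cells are known for a weak response to interferon.

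The promoters of 8 of the 10 genes, as 9 windows from 250 bases before to 50 after the transcription start (RefSeq, GRCm38.p6), were searched for the interferon-stimulated response element, spelled GAAA, any 2 bases, GAAA, or on the other strand TTTC, any 2 bases, TTTC. Ifit1, Ifit3, Isg15 and Rsad2 held at least 1 match, which is 4 of 8 genes (50%), against 3.99% of the 27025 genes with such a window. Among the lists described below, 19 of 35 other interferon-induced genes (54.3%), 3 of 17 signalling genes (17.6%) and 0 of 17 related conjugation enzymes held one. No window was available for Usp18 and Rtp4, which had the largest differences from ESC of the 10 genes, so their promoters were not searched. Of the 4 genes with a match, Ifit1 alone passed the tests against ESC given below. Isg15 and Ifit3 had means below the background level described below in every group, so a fall there would not be measurable. The 4 windows with a match are shown because they place the element in these genes, with the matches in capitals and each sequence read along the gene's strand. They lie at chr19:34640639-34640938 (plus strand, Ifit1), chr19:34583279-34583578 (plus strand, Ifit3), chr4:156200769-156201068 (minus strand, Isg15) and chr12:26456403-26456702 (minus strand, Rsad2).
Ifit1: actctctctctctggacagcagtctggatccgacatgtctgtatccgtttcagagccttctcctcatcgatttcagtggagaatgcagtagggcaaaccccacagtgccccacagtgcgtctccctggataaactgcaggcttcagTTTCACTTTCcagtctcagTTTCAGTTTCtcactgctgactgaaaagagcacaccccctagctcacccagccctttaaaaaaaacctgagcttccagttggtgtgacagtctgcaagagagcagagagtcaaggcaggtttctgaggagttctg
Ifit3: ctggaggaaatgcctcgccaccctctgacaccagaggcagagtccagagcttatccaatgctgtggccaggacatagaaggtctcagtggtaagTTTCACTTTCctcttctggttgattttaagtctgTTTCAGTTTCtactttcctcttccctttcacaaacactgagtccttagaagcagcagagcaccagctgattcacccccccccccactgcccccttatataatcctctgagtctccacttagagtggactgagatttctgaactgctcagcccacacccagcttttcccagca
Isg15: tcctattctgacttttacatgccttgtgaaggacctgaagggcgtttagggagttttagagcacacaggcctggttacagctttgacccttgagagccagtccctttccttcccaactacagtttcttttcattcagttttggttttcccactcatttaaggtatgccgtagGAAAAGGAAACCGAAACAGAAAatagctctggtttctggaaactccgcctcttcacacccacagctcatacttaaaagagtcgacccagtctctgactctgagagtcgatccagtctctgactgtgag
Rsad2: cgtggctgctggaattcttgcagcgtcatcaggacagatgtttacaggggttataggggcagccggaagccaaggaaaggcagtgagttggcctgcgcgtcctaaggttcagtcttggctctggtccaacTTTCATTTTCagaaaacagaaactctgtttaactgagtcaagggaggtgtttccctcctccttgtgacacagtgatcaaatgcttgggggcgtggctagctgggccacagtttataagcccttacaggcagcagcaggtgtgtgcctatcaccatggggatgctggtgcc
Ifit1 and Ifit3 carried the same pair of decamers, TTTCACTTTC followed by TTTCAGTTTC, at -104 and -85 bases from the start in Ifit1 and at -156 and -122 bases in Ifit3. In Isg15 3 matches overlapped in 1 run that began at -78 bases, and Rsad2 had a single match at -120 bases. The gamma-activated site, TTCNNNGAA, which reads the same pattern on both strands, was found in 1 of the 8 genes, Ifit2, against 9.55% of all genes. Neither motif was found in its exact spelling in the windows of Uba7, Ube2l6 and Herc6, and near matches were not searched.

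**Figure D1:**
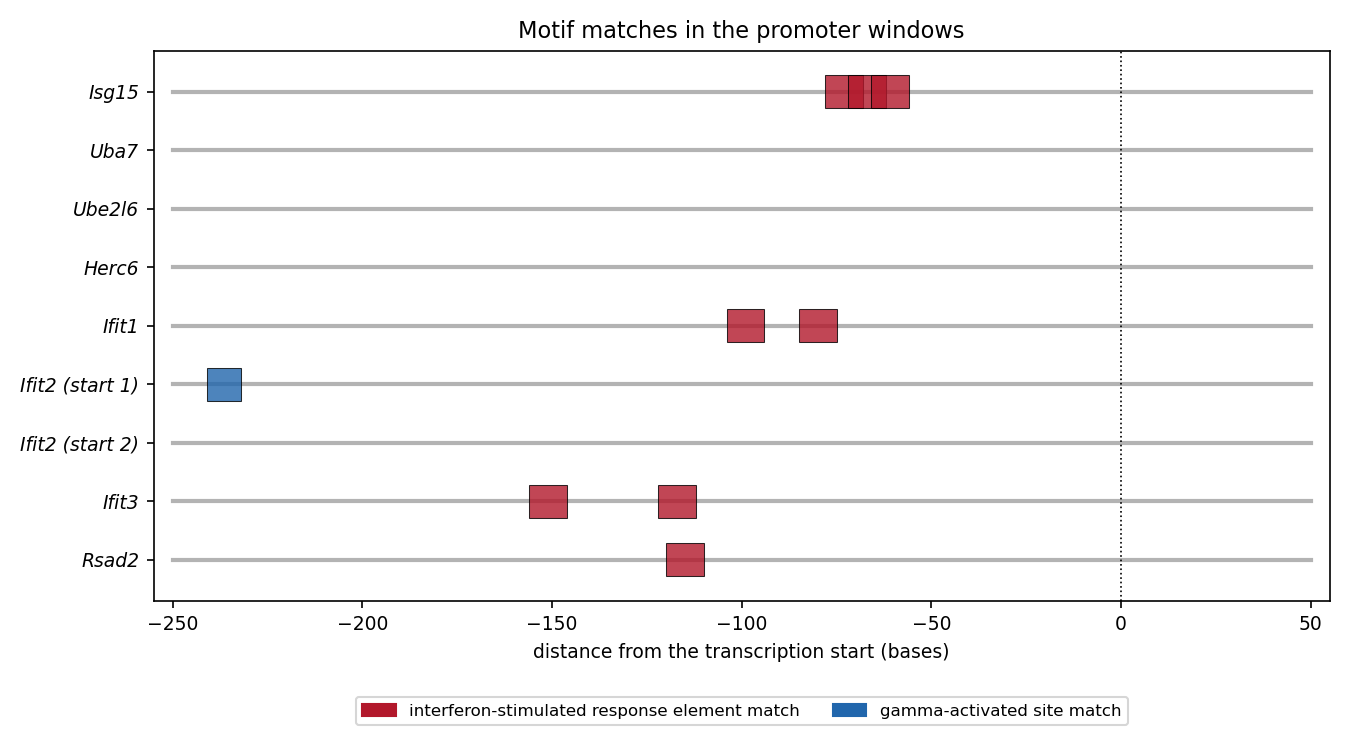
Positions of motif matches in 9 promoter windows of 8 genes, as the distance in bases from the transcription start. Red boxes are matches to the interferon-stimulated response element and the blue box is a match to the gamma-activated site; Ifit2 has 2 annotated starts, and the 3 boxes of Isg15 overlap.

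Of the 9 pairs of arrays within groups, replicates 1 and 3 of D10 stood apart by their likeness (Pearson r = 0.9977 over all probe sets, where the other 8 pairs had 0.9924 to 0.9945). Their difference was smaller than the noise of any other pair (SD 0.0686, against 0.154 to 0.201 on the log2 scale). These SDs cover only the 8292 brightest probe sets by mean. Replicates 1 and 3 of D10 therefore entered the tests as 1 averaged sample and D10 had n = 2. All 10 pluripotent cell markers lay above the background level in each group, with a summed linear level of 8718 to 8995 in D10, 9109 to 9685 in D5 and 11750 to 12346 in ESC, and 4 of them were lower in D10 and 4 in D5 (limma, adjusted p under 0.05). Fibroblast markers summed to 7341 to 7677 in D10, 4798 to 5293 in D5 and 2442 to 2984 in ESC. Of these 16 markers, 16 were higher in D10 than in ESC and 13 in D5 (limma, adjusted p under 0.05), with S100a4 alone below background, in ESC. Over all probe sets 3.33% were lower and 5.32% higher in D10, and 1.5% lower and 2.36% higher in D5. Of 13 blood cell markers, 11 lay below background in every group, among them Ptprc, Spi1 and Itgam, and the list summed to 203 to 217 in D10, 178 to 194 in D5 and 154 to 162 in ESC. The 1 blood marker that was higher in both lines was Cd34 (named after its values were seen), which averaged 6.71 in D10, 6.31 in D5 and 5.61 in ESC on the log2 scale. As the brightest marker of that list, Cd34 weighs most in its sums. The median log2 difference of the 13 from ESC was -0.08 in D10 and -0.02 in D5. The fibroblast and pluripotent cell markers thus moved with the comparisons below, and their part in the results was not tested. In bulk RNA, fewer expressing cells and less RNA per cell cannot be told apart.

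Rtp4, Usp18 and Ifit1 were much lower in both re-derived lines than in ESC, while the other 7 genes differed by less and did not pass the test. In D10, 3 of the 10 genes fell and 0 rose (limma, Benjamini-Hochberg adjusted p under 0.05), where 3.33% of all probe sets fell and 5.32% rose. In D5 these 3 genes fell and 0 rose, where 1.5% of all probe sets fell and 2.36% rose. At an unadjusted p under 0.05 there were 7 of 10 genes in D10 and 7 of 10 in D5, against 21.2% and 16.6% of all probe sets. The arrays lay below all ESC arrays without overlap for 4 genes in D10 and 7 in D5, against 16.4% and 11.0% of all probe sets. The median log2 difference of the 10 genes was -0.44 for D10 and -0.49 for D5, against medians of -0.02 and -0.01 over all probe sets. All 10 estimates were below 0 in both comparisons, as were 55.4% of all probe sets for D10 and 53.0% for D5. Both comparisons use the same ESC arrays. The authors' deposited table of 461 selected probe sets, of 28853 on the arrays, holds 3 of the 10 genes, Rtp4, Usp18 and Ifit1. It holds values of these same arrays, so it is no separate support.

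**Figure D2:**
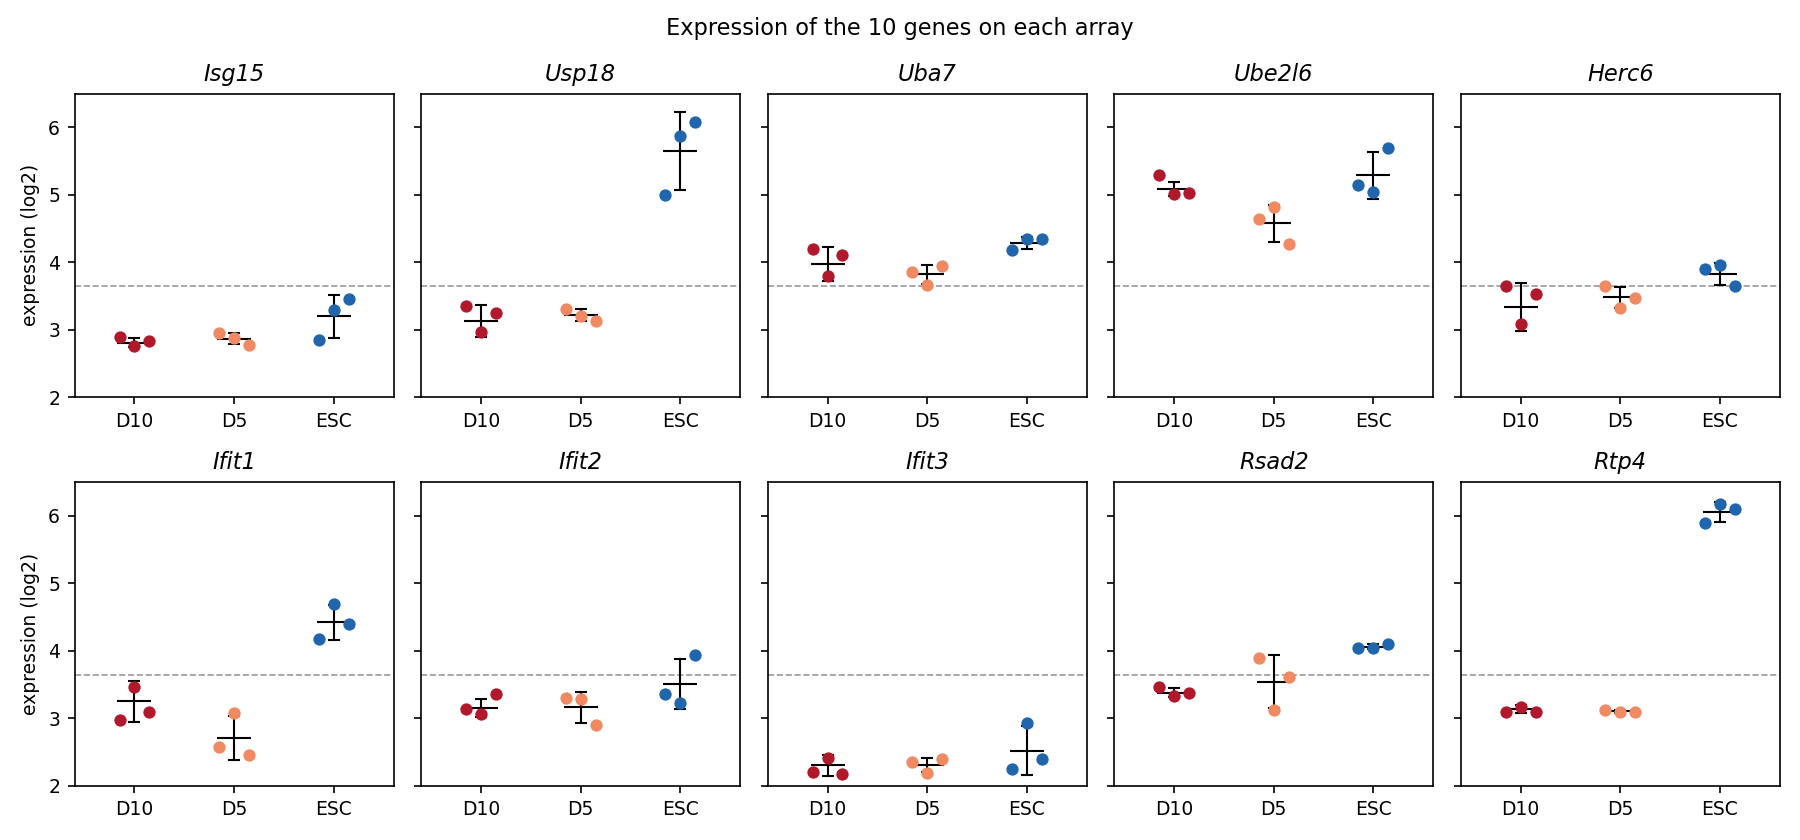
Log2 expression of the 10 genes on each array (points; D10, D5 and ESC from left to right, replicates 1 to 3 within a group), with the mean and SD (bars; D10 replicates 1 and 3 counted as 1 sample) and the background level of 3.64 (dashed line). Rtp4, Usp18 and Ifit1 lie above the line on all ESC arrays and below it on all D10 and D5 arrays.

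The background level used here, 3.64 on the log2 scale, is the 95th percentile of 1414 probe sets for olfactory and vomeronasal receptors. In ESC 7 of the 10 genes had a mean above it, in D10 and D5 only 2, Uba7 and Ube2l6. The count in ESC was near the share over the whole array, and the counts in D10 and D5 were below that share. Without a split by group, 64.7% of all probe sets lay above the background level. Where a line has a mean below it and ESC a mean above it, the fold is also given as a lower bound against that level, since the measured difference there includes signal at background. That bound rests on the means alone and takes no account of the spread among arrays. It can therefore exceed the low end of the 95% interval.

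USP18 is the protease that takes ISG15 off its targets and also dampens signalling at the interferon receptor. Usp18 (chromosome 6, 121245906 to 121270917, GRCm38.p6) had log2 values of 3.35, 2.96 and 3.24 in D10, 3.31, 3.21 and 3.13 in D5, and 4.99, 5.87 and 6.08 in ESC. Every D10 and D5 array lay below every ESC array, and ESC replicate 1 lay well below the other ESC arrays. Usp18 averaged 3.13 ± 0.24 in D10 (SD, n = 2) and 5.65 ± 0.58 in ESC (SD, n = 3), 5.73-fold lower (95% interval 3.68 to 8.92; limma, adjusted p = 0.000977). In D5 it averaged 3.22 ± 0.09 (SD, n = 3), 5.39-fold lower than in ESC (95% interval 3.63 to 8.02; limma, adjusted p = 0.00164). Against the background level, both lines were at least 4.01-fold lower.

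Isg15, the modifier itself, was dim on all arrays. Its log2 values were 2.89, 2.76 and 2.83 in D10, 2.95, 2.88 and 2.78 in D5, and 2.85, 3.30 and 3.45 in ESC. ESC replicate 1 lay within the range of the lines, and all group means were below background. The log2 difference from ESC was -0.39 for D10 (limma, adjusted p = 0.221) and -0.33 for D5 (limma, adjusted p = 0.311). RefSeq places Isg15 on chromosome 4 (156199424 to 156200818, GRCm38.p6), but the array annotation lists chromosomes 17 and 4 for its probe set, so the locus that these probes read is not settled. Without ESC replicate 1 the difference for D10 was -0.56 and passed (limma, adjusted p = 0.0292).

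Of the conjugating enzymes, none passed the test in either line, although Ube2l6 and Uba7 had means above background in every group. Ube2l6, the E2 that carries ISG15 (chromosome 2, 84798828 to 84810003), had log2 values of 5.29, 5.01 and 5.02 in D10, 4.64, 4.81 and 4.27 in D5, and 5.15, 5.04 and 5.69 in ESC. D5 lay below both other groups on every array, whereas D10 overlapped with ESC. Its log2 difference from ESC was -0.21 in D10 (95% interval -0.70 to 0.28; limma, adjusted p = 0.671) and -0.72 in D5 (95% interval -1.15 to -0.28; limma, adjusted p = 0.0868). With an intensity trend and robust estimation the D5 difference passed (limma, adjusted p = 0.0382).

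Uba7, the E1 that activates ISG15 (chromosome 9, 107975567 to 107984056), had log2 values of 4.19, 3.79 and 4.10 in D10, 3.85, 3.67 and 3.94 in D5, and 4.19, 4.35 and 4.34 in ESC. All D5 arrays lay below all ESC arrays, while D10 replicate 1 reached the lowest ESC value. The difference from ESC was -0.32 for D10 (limma, adjusted p = 0.208) and -0.47 for D5 (limma, adjusted p = 0.0699) on the log2 scale, and the D5 difference passed when the dimmest 30% of probe sets were left out (limma, adjusted p = 0.0458). Herc6, the ligase (chromosome 6, 57580992 to 57665136), ran from 3.08 to 3.65 in D10, from 3.32 to 3.64 in D5 and from 3.65 to 3.95 in ESC. The highest D10 array overlapped with ESC, and the D5 arrays lay just below it. Its differences from ESC were -0.49 for D10 (limma, adjusted p = 0.126) and -0.35 for D5 (limma, adjusted p = 0.294) on the log2 scale. Both lines had means below background, and the ESC mean lay 1.14-fold above that level.

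The 3 IFIT genes lie in 1 cluster on chromosome 19, and Ifit1 alone passed the test. Ifit1 (34640889 to 34650009, GRCm38.p6), whose product binds RNA that lacks the cap marks of the cell's own messages, had log2 values of 2.98, 3.46 and 3.09 in D10, 2.57, 3.07 and 2.46 in D5, and 4.18, 4.70 and 4.39 in ESC. No D10 or D5 array reached the lowest ESC array. Ifit1 averaged 3.25 ± 0.30 in D10 (SD, n = 2) and 4.42 ± 0.26 in ESC (SD, n = 3), 2.26-fold lower (95% interval 1.59 to 3.20; limma, adjusted p = 0.0133). In D5 it averaged 2.70 ± 0.32 (SD, n = 3), 3.30-fold lower than in ESC (95% interval 2.41 to 4.51; limma, adjusted p = 0.00267), and both lines were at least 1.72-fold lower against the background level.

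Ifit2 and Ifit3 were below background on average in all groups, so a fall there would not be measurable. Ifit2 (34550550 to 34576534) ran from 3.06 to 3.36 in D10, from 2.89 to 3.31 in D5 and from 3.23 to 3.93 in ESC, with only ESC replicate 3 clearly above the lines. Its log2 difference from ESC was -0.35 for D10 (limma, adjusted p = 0.416) and -0.35 for D5 (limma, adjusted p = 0.429). Ifit3 (34583119 to 34588982) ran from 2.17 to 2.41 in D10, from 2.19 to 2.39 in D5 and from 2.24 to 2.92 in ESC, and the groups overlapped. Its differences were -0.22 for D10 (limma, adjusted p = 0.601) and -0.21 for D5 (limma, adjusted p = 0.617). Ifit3 has a near copy beside it, Ifit3b (named after its values were seen), which averaged 1.81 in D10, 1.49 in D5 and 1.39 in ESC on the log2 scale, far below background in all groups, and did not pass in either line.

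RTP4 is an interferon-induced chaperone of membrane receptors, and its gene showed the largest measured difference of the 10. Rtp4 (chromosome 16, 23520219 to 23614222, GRCm38.p6) had log2 values of 3.09, 3.17 and 3.09 in D10, 3.13, 3.09 and 3.10 in D5, and 5.89, 6.18 and 6.10 in ESC. The lines lay together below background and ESC far above it. Rtp4 averaged 3.13 ± 0.06 in D10 (SD, n = 2) and 6.05 ± 0.15 in ESC (SD, n = 3), 7.58-fold lower (95% interval 6.43 to 8.93; limma, adjusted p = 9.49e-06). In D5 it averaged 3.10 ± 0.02 (SD, n = 3), 7.74-fold lower than in ESC (95% interval 6.68 to 8.96; limma, adjusted p = 5.07e-06), and both lines were at least 5.31-fold lower against the background level.

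RSAD2, known as viperin, makes a modified nucleotide that stops viral polymerases. Rsad2 (chromosome 12, 26442743 to 26456452) had log2 values of 3.47, 3.33 and 3.37 in D10, 3.90, 3.12 and 3.61 in D5, and 4.04, 4.04 and 4.10 in ESC. The ESC arrays agreed closely and lay above all others, and the D5 arrays spread widely. The log2 difference was -0.68 for D10 (95% interval -1.12 to -0.25; limma, adjusted p = 0.0650) and -0.52 for D5 (95% interval -0.91 to -0.13; limma, adjusted p = 0.160). Both lines had means below background, and the ESC mean lay 1.33-fold above that level. For D10 the difference passed in 6 of 13 alternatives (limma, lowest adjusted p = 0.0129). Among these were both settings with all 9 arrays counted separately (limma, adjusted p = 0.024 and 0.0267), which take D10 replicates 1 and 3 as separate samples. Without ESC replicate 3 it did not pass (limma, adjusted p = 0.163). Without D10 replicate 2, where D10 was 1 averaged sample, the difference was -0.64.

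**Figure D3:**
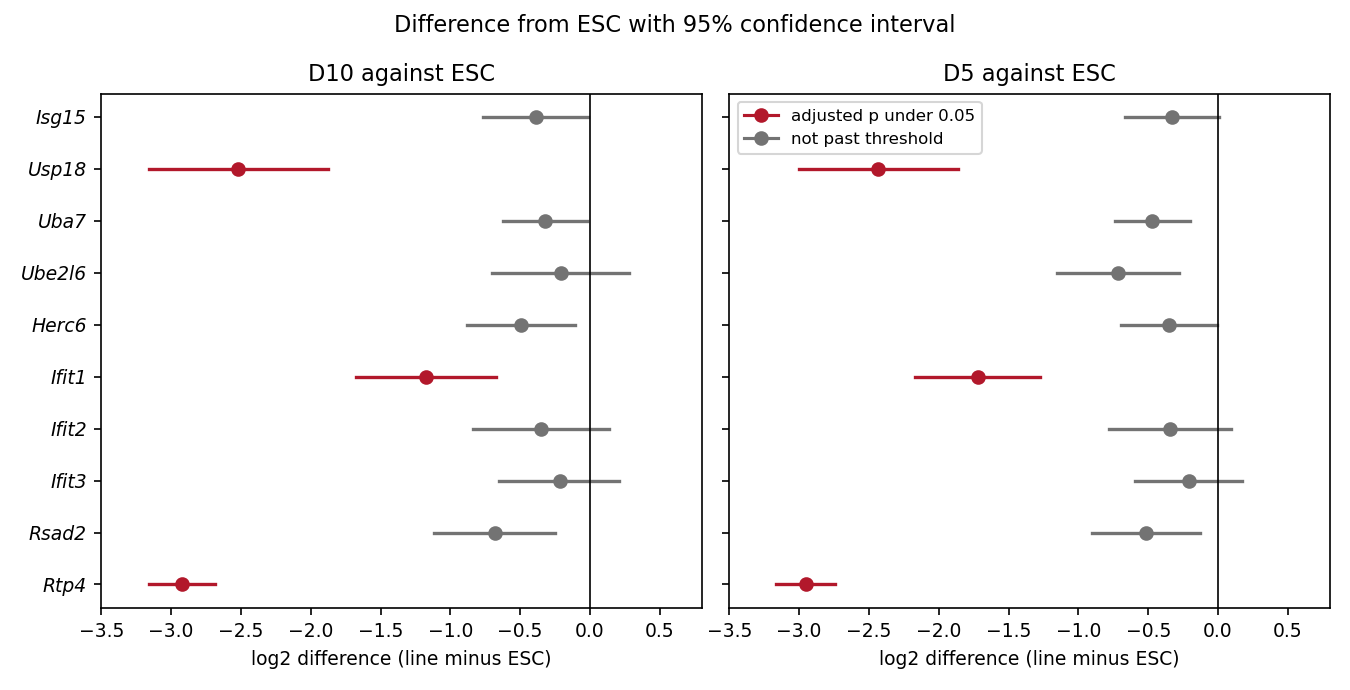
Log2 difference of each of the 10 genes between a line and ESC, D10 on the left and D5 on the right, as points with 95% confidence intervals from limma. Red marks Usp18, Ifit1 and Rtp4, which passed an adjusted p of 0.05 in both comparisons; grey marks the 7 genes that did not.

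D10 and D5 were also compared directly. Of the 10 genes, 0 passed (limma, adjusted p under 0.05), where 0.215% of all probe sets did, and 2 had an unadjusted p under 0.05, as did 9.75% of all probe sets. Of the 10 genes, Uba7 and Ube2l6 alone had means above background in D10 and D5, so for the other 8 this comparison sets signals at background level against each other and says nothing of whether their levels were alike. The 2 were Ifit1, with a signal at background level that differed by 0.55 on the log2 scale (95% interval 0.04 to 1.05; limma, adjusted p = 0.454), and Ube2l6, higher in D10 by 0.51 (95% interval 0.02 to 1.0; limma, adjusted p = 0.484). Ube2l6 was the only member whose D10 and D5 arrays did not overlap, where 9.87% of all probe sets were higher in D10 without overlap. Uba7 differed by 0.15 on the log2 scale (limma, adjusted p = 0.800). In the same comparison 3 of 16 fibroblast markers were higher in D10, with a median log2 difference of 0.59 over the list, and their part in the values was not tested.

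The ESC arrays were not alike for these genes. ESC replicate 1 was the lowest ESC array in 7 of the 10 genes and in 26 of 46 other interferon-induced genes (56.5%), against 36.6% of all probe sets. The gap to the mean of ESC replicates 2 and 3 was widest for Usp18 (-0.99) and Isg15 (-0.53) on the log2 scale, and for Rsad2 it was -0.03. Averaged over the 10 genes, the log2 level was 3.43, 3.31 and 3.38 in D10, 3.36, 3.26 and 3.20 in D5, and 4.08, 4.36 and 4.41 in ESC, so that ESC replicate 1 still lay above every array of the lines. With ESC replicate 1 left out, Usp18, Ifit1 and Rtp4 kept their calls in both lines. The arrays of the lines were uneven too. D10 replicate 2 was the lowest D10 array in 7 of the 10 genes, against 42.3% of all probe sets. D5 replicate 1 was the lowest D5 array in 0 of the 10 genes, against 32.1% of all probe sets.

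Genes whose levels over the 9 arrays were most like the mean of the 10 included Parp9 (Pearson r = 0.988), Dtx3l (0.987), Irgm2 (0.981), Irgm1 (0.981) and Oas1g (0.980). They were sought among 437 genes with a mean above background in at least 1 group and whose group means spanned at least 1 on the log2 scale, and 52 of these had r above 0.9. The points share the 3 groups, so the values describe the step between ESC and the lines. Parp9 and Dtx3l, which act as a pair in the interferon response, had the highest values. Parp9 averaged 4.91 in D10, 4.8 in D5 and 6.65 in ESC on the log2 scale, and Dtx3l 5.0 in D10, 4.88 in D5 and 6.38 in ESC. Within the set, Usp18 (r = 0.988) and Rtp4 (r = 0.962) followed the mean of the other members most closely and Ifit3 (r = 0.513) least. Genes with the largest differences weigh most in such a mean of log2 values, and Ifit3 had means below background in all groups. The order therefore mostly restates the size of the measured differences.

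Other interferon-induced genes differed from ESC in the same direction. Of 46 measured, 30 fell in D10, 0 rose and 16 missed the threshold, where 3.33% of all probe sets fell and 5.32% rose. The median log2 difference was -0.81 (lowest -3.17, highest 0.06). In D5 33 fell, 0 rose and 13 missed the threshold, where 1.5% of all probe sets fell and 2.36% rose. The median there was -1.01 (lowest -3.6, highest -0.04). The list was chosen with earlier results of these data known. Irgm1, a GTPase of cell-autonomous immunity, had the largest measured fall in this list and stayed above background in all groups, with a fall of 9.02-fold in D10 and 12.1-fold in D5 (limma, adjusted p = 1.08e-05 and 5.07e-06). The helicase gene Ddx60 was below background in both lines, at least 4.55-fold lower than ESC, with a measured log2 difference of -3.02 in D10 and -3.17 in D5. Cmpk2, the neighbour of Rsad2 that makes the substrate for its product, differed from ESC by -0.28 in D10 (limma, adjusted p = 0.224) and -0.46 in D5 (limma, adjusted p = 0.0544) on the log2 scale. Both lines had Cmpk2 means below background, and the ESC mean lay 1.16-fold above that level.

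Stat2 and Irf9, whose products act on interferon-stimulated response elements, were lower in the lines, and no receptor or kinase gene of the list passed as lower. Of 18 signalling genes, 5 fell and 5 rose in D10, and 5 fell and 2 rose in D5. Over all probe sets 3.33% fell and 5.32% rose in D10, and 1.5% fell and 2.36% rose in D5. Stat2 had log2 values of 5.13, 5.19 and 5.0 in D10, 5.33, 5.5 and 5.15 in D5, and 6.74, 7.02 and 7.09 in ESC. All arrays of the lines lay below all ESC arrays. Stat2 was 3.54-fold lower in D10 and 3.08-fold lower in D5 than in ESC, and Irf9 2.59-fold lower in D10 and 2.27-fold lower in D5 (limma, highest adjusted p of these = 0.00276). Irf7, which drives interferon genes, had means below background in both lines, at least 2.89-fold lower than ESC, and a measured log2 difference of -1.68 in D10 and -1.82 in D5 (limma, adjusted p = 0.000475 and 0.000491). Irf1 also fell in both lines. The genes that rose were Jak1 and Ifngr2 in both lines, and Ifnar2, Ifngr1 and Jak2 in D10. Ifnar1 differed from ESC by -0.02 in D10 and 0.04 in D5 on the log2 scale, short of the threshold. Irf1, Ifnar1 and the genes that rose are named after their values were seen.

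Of 13 ligand genes measured, which were interferons and Il6, 0 passed in either line (limma), where 8.65% of all probe sets passed in D10 and 3.87% in D5. At an unadjusted p under 0.05 there were 2 in D10 and 1 in D5 (limma), against 21.2% and 16.6% of all probe sets. These counts do not exceed those shares. Of the 13, 6 had a mean above background in at least 1 group. Ifnb1, the gene of interferon beta and named after its values were seen, averaged 3.79 in D10, 3.89 in D5 and 3.69 in ESC on the log2 scale, close to background, and its groups overlapped.

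Enzymes that handle ubiquitin and other ubiquitin-like proteins passed about as often as all probe sets. Of 23 measured, 2 fell in D10 and 0 rose, with a median of -0.06, and 1 fell in D5 and 0 rose, with a median of -0.03 on the log2 scale, where 8.65% of all probe sets passed in D10 and 3.87% in D5. Trim25, a ligase tied to antiviral sensing that is also in the interferon-induced list, was 1.75-fold lower in D10 and 1.69-fold lower in D5 (limma, adjusted p = 0.00145 and 0.00269). The other that fell in D10 was Uba2, the E1 subunit for SUMO (1.29-fold; limma, adjusted p = 0.0342). Ube2l3, the close relative of Ube2l6 that carries ubiquitin, differed from ESC by 0.07 in D10 and 0.05 in D5 on the log2 scale, short of the threshold. The nearest measured protein-coding genes of the 10, up to 2 on each side and at any distance, were also set against ESC. Of 31 measured protein-coding neighbours that are no members, 0 fell in either line (limma, adjusted p under 0.05), and 2 rose in D10 and 1 in D5. With 3.33% of all probe sets falling in D10 and 1.5% in D5, and 5.32% and 2.36% rising, these counts are near the background. Those that rose were Masp1, which the annotation overlaps with Rtp4, in both lines, and Id2, 1346650 bases from Rsad2, in D10. Masp1 and Id2 were named after their values were seen.

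**Figure D4:**
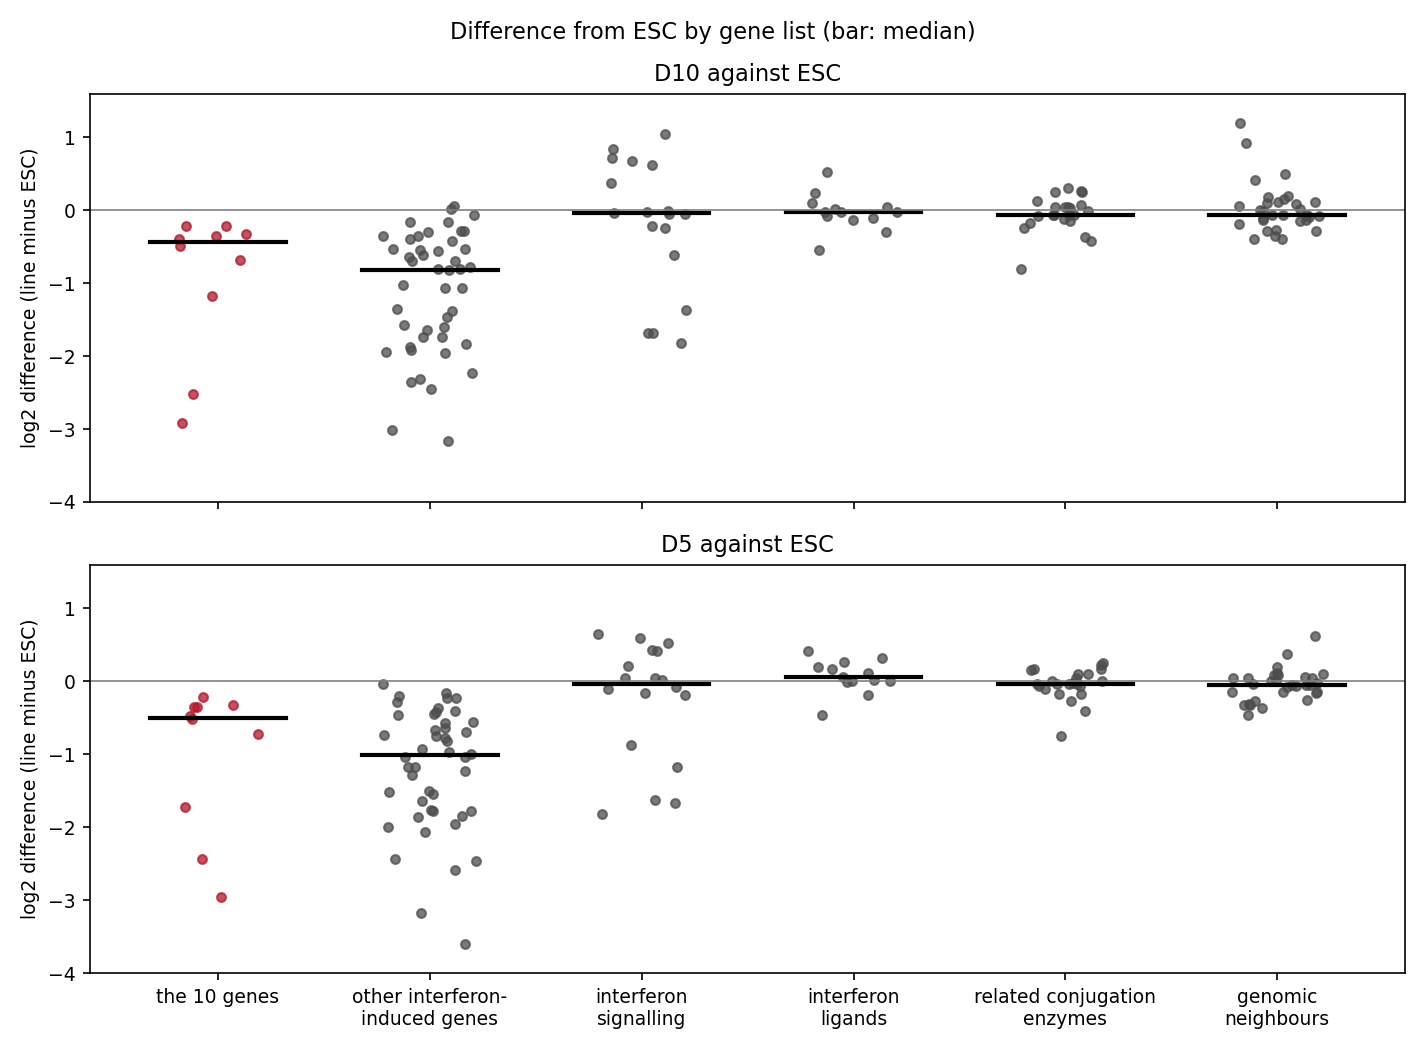
Log2 difference from ESC for each gene of 6 lists, D10 in the upper panel and D5 in the lower, with the median of each list as a bar. The 10 genes and the other interferon-induced genes lie mostly below 0, with medians of -0.44 and -0.81 in D10 and -0.49 and -1.01 in D5, while the medians of the other lists lie near 0.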

How the data were processed

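Total RNA (100 ng per sample) was biotinylated and put on 9 Affymetrix whole-transcript arrays, per the labels. The submitters' processing notes name MAS5. For normalization between arrays, the method was not given in the sources used here. Deposited log2 values of 28853 probe sets, with array medians of 4.45 to 4.53, were used as they stood, and 2 deposited copies of them were identical. A shorter table by the authors, of 461 probe sets, holds linear intensity, whose log2 differs from the first table by at most 1.94e-05. Signal near background compresses differences. The number of arrays limits the precision.

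Genes were matched to RefSeq (GRCm38.p6) by accession and symbol. All probe sets were tested with limma 3.58.1 under R 4.3.3 (1 mean per group by lmFit, then eBayes; 8 samples, 5 residual and 3.56 prior degrees of freedom), two-sided, and p-values were adjusted by Benjamini-Hochberg over the whole table, threshold 0.05. The fit was tried on simulated data with independent normal noise. Changes were set there only in brighter probe sets, so the trial did not cover the dim range where most of the 10 genes lie. Of the list names, 46 of 47 other interferon-induced genes and 13 of 14 blood cell markers matched, and all names of the other lists did. All 10 members are named; from other lists at most 4 with the largest changes, Stat2, Irf7, Irf9, Cmpk2 and Ube2l3, and those most alike in pattern; 1 gene that this rule names is not reported here. Members and lists were chosen with earlier results of these data known. Alternatives were all 9 arrays counted separately, either without or with the replicate number as a block. Others were quantile normalization, median centring, the lowest 30% of probe sets left out, and robust estimation with an intensity trend. The last were only the groups being compared, and each array left out. Another probe set per gene could not be tried, as each member has 1. Promoter windows came from RefSeq.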

Additional observations from a re-analysis of the deposited data

How the results depend on the processing

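Usp18, Ifit1 and Rtp4 kept their direction against ESC in all 13 alternatives in each line. Their log2 differences in D10 were -2.85 to -2.30, -1.39 to -1.04 and -3.01 to -2.86. In D5 they were -2.76 to -2.21, -1.91 to -1.58 and -3.03 to -2.89. Leaving out D10 replicate 1 or 3 changed the fit little, as their mean entered it as 1 sample. Without D10 replicate 2, D10 was 1 averaged sample, so that fit gives differences only. In all other alternatives these 3 genes kept their calls. The number of genes past the threshold there was 3 or 4 for both lines, and 0 for D10 against D5. The gene added was Rsad2, or Isg15 without ESC replicate 1, in D10, and Uba7 or Ube2l6 in D5. Leaving out the lowest 30% of probe sets, which removed Isg15, Ifit2 and Ifit3, moved the median log2 difference to -0.68 in D10 and -0.72 in D5 (7 genes). Over the arrays left out in turn the median ran from -0.51 to -0.33 in D10 and from -0.59 to -0.40 in D5.

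For D10 against D5 the sign turned only for differences near 0 that never passed. Ifit2 turned to 0.03 with all 9 arrays counted separately, and to 0.03 also with the replicate block. With arrays left out, Ifit2 ran from -0.14 to 0.09, Ifit3 from -0.12 to 0.03, Rsad2 from -0.38 to 0.01, Usp18 from -0.13 to 0.08, Herc6 from -0.22 to 0.11 and Rtp4 from -0.01 to 0.04. The replicate numbers share no source in the labels. Over the brightest probe sets, the deviations of same-numbered arrays correlated between -0.379 and 0.298. With the replicate block, which counted all 9 arrays separately, the counts were 4 in D10, 3 in D5 and 0 for D10 against D5. With all 9 arrays counted separately and no block, the counts were the same. The count over all probe sets for D5 against ESC, 1116, ran from 457 (without ESC replicate 3) to 1695 (intensity trend and robust estimation). For D10 against ESC, 2496, it ran from 1551 (without ESC replicate 3) to 3977 (all 9 arrays counted separately), the fit without D10 replicate 2 left aside. For D10 against D5, 62, it ran from 2 (only the arrays compared) to 517 (all 9 arrays counted separately). Members below background in all groups allow no statement on a fall.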
